A study of Mus musculus with 12 samples.

Results

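Cytochrome c oxidase (complex IV) carries several nuclear-encoded subunits for which the mouse genome holds a common and a tissue-restricted isoform gene, and the 10 genes of 5 such pairs were followed here through a transient knockdown of Srrm2. The members were chosen by their symbols among the 42450 genes of the count table, as the pairs Cox6b1 and Cox6b2, Cox4i1 and Cox4i2, Cox6a1 and Cox6a2, Cox7a2 and Cox7a1, and Cox8a and Cox8c. Cox6b2 was put on the list because its response in these libraries was already known, so its values are given as a description with no test. All 10 genes were listed in the table and all 10 passed the filter on low counts.

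To lower Srrm2, which encodes a large serine- and arginine-rich protein of nuclear speckles that takes part in splicing, wild-type male mouse embryonic stem cells of the E14tg2a.4 line received siRNA at 50 nM. In Srrm2-KD the siRNA targeted Srrm2, and in the control, Gl2-KD, it targeted firefly luciferase (Gl2), a sequence that mouse cells lack. Cells were harvested at 24 h, or were transfected again with the same siRNA and harvested at 72 h. Each of the 4 groups had 1 library in each of 3 independent experiments, which makes 12 libraries of polyA+ RNA. All 4 groups shared the line, the serum-free medium with leukaemia inhibitory factor and the transfection reagent, and no untransfected culture is part of the comparisons.

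Complex IV is the last enzyme of the respiratory chain and passes electrons from cytochrome c to oxygen. Its catalytic core is encoded by mitochondrial DNA, and the nuclear-encoded subunits surround the core, where they bear on its assembly, stability and regulation. Subunit 6B sits on the side facing the intermembrane space, near the site where cytochrome c docks. Cox6b2 is known as the testis and sperm isoform of subunit 6B, Cox8c as a testis isoform of subunit 8, Cox6a2 and Cox7a1 as the heart and skeletal muscle isoforms of their subunits, and Cox4i2 as an isoform of lung and of cells that sense oxygen.

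The coding sequences of the subunit 6B pair are shown because every comparison below depends on reads of the 2 genes being told apart. They were read from the GENCODE M21 transcripts (GRCm38), run 5′ to 3′ from the start codon to the stop codon, and have capitals where the aligned isoforms differ or where one has a base that the other lacks.
Cox6b2: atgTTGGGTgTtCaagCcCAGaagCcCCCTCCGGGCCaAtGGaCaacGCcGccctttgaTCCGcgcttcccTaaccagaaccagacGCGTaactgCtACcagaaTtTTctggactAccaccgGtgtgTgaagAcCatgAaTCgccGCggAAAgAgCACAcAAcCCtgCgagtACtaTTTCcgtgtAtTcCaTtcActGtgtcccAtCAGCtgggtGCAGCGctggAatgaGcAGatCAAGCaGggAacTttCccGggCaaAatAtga
Cox6b1: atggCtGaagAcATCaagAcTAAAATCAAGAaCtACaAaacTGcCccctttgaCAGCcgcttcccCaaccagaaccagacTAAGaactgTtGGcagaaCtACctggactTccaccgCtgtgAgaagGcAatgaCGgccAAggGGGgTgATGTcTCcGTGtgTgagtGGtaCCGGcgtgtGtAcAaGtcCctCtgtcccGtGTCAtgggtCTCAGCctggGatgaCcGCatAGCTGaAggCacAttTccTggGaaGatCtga
Cox6b2 has 267 bases for 88 amino acids and Cox6b1 has 261 bases for 86. Of 260 aligned bases 158 were identical, which is 60.8%, and the longest identical stretch was 14 bases. The other pairs lay at 62.5% for subunit 4, 62.6% for 6A, 61.7% for 7A and 49.5% for 8, with no identical stretch beyond 14 bases. No 31-base word of the annotated transcripts of Cox6b2, Cox4i2, Cox6a2, Cox7a1, Cox8a or Cox8c occurred in a transcript of another gene, read in the same direction. The share of such unique words was 97.8% for Cox6b1, 96.3% for Cox4i1 and 97.1% for Cox7a2. For Cox6a1 it was 81.5%, its 129 shared words being those of AC148174.2, a pseudogene without a value in the count table. What this means for its level was not tested. The reverse direction was not searched, and the counts were made with GENCODE M24. The estimated counts of Cox7a1 were not whole, at 242.47, 604.53 and 856.91 for Gl2-KD at 24 h in experiments 1, 2 and 3. Whether its reads were divided with another gene was not tested.

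The libraries held 73933196 to 153343831 estimated counts, the lowest being Srrm2-KD at 72 h in experiment 3. Srrm2 itself, in counts scaled by library size and TMM factors (CPM), lay at 911, 496 and 449 in experiments 1, 2 and 3 for Gl2-KD at 24 h and at 517, 154 and 199.8 for Srrm2-KD. The 72 h controls held 962, 479 and 442 CPM, and the 72 h knockdown libraries 461, 182 and 217. Srrm2 was therefore lower in 3 of 3 experiments at each time, with log2 fold changes of -1.22 (SE 0.14) and -1.16 (SE 0.14). Its adjusted p was 0.0664 at 24 h and 0.0991 at 72 h with edgeR's quasi-likelihood test, and 5.03e-11 and 1.72e-09 with DESeq2. The knockdown library of experiment 1 held about as much Srrm2 as the control libraries of experiments 2 and 3, so that the groups overlapped across experiments.

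In these cells the common isoforms made up nearly all complex IV transcripts of their subunits, except for subunit 6B. Levels are compared between genes per kilobase of the longest protein-coding transcript. Cox4i1 was highest with a median over the 12 libraries of 714 CPM per kb, followed by Cox8a at 373, Cox6a1 at 332, Cox6b1 at 275 and Cox7a2 at 236. Cox6b2 came next at 96.5 CPM per kb and spanned 46.3 to 286. The remaining restricted isoforms lay far below, with medians of 11.3 for Cox7a1, 0.255 for Cox4i2, 0.169 for Cox8c and 0.102 for Cox6a2. Within a library this order was kept in all 12 for most neighbours. Cox8a lay above Cox6a1 in 11 of 12 libraries and Cox8c above Cox6a2 in 10 of 12. Cox7a2 lay above Cox6b2 in 9 of 12 libraries, the exceptions being the Gl2-KD libraries of 72 h. There Cox6b2 lay at 168, 286 and 283 CPM per kb in experiments 1, 2 and 3, and Cox7a2 at 156, 241 and 234. Cox4i2 lay above Cox8c in 7 of 12, so that these last neighbours did not differ beyond their spread.

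**Figure D1:**
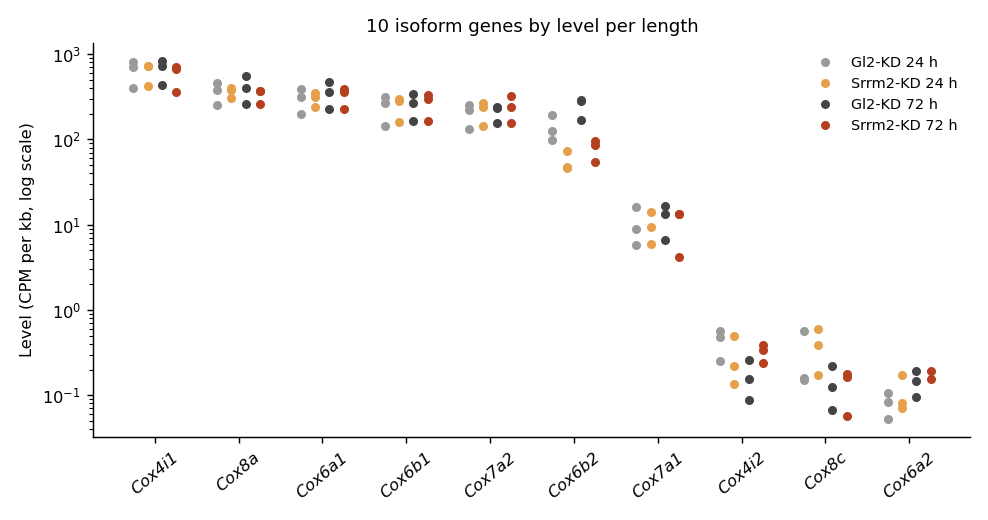
Level of the 10 isoform genes in CPM per kb of the longest protein-coding transcript, on a log axis. Each point is 1 library, coloured by group, and genes are ordered by their median; the 1 library with a count of 0 for Cox6a2 (Srrm2-KD at 72 h, experiment 3) cannot be drawn on this axis. Cox6b2 spans 46.3 to 286 CPM per kb and is the only restricted isoform that reaches the range of the common ones.

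In each of the 3 experiments and at both times, Cox6b2 was lower in Srrm2-KD than in Gl2-KD. At 24 h it lay at 57.4, 74.4 and 113 CPM in the Gl2-KD libraries of experiments 1, 2 and 3, and at 42.3, 28.1 and 27.1 CPM in Srrm2-KD. At 72 h the Gl2-KD libraries held 98.4, 167 and 165 CPM and the Srrm2-KD libraries 31.6, 55.6 and 50.9. The libraries of the siRNAs did not overlap at either time, and the highest Srrm2-KD value at 72 h lay below every Gl2-KD value of either time. The log2 fold change was -1.24 (SE 0.28) at 24 h and -1.64 (SE 0.28) at 72 h, which leaves 42.2% and 32.1% of the control level. Among all 19410 genes tested, 3.51% had libraries that did not overlap between the siRNAs at 24 h and 6.67% at 72 h, in either direction. Cox6b2 was the 1 member of 10 with this property at each time, and since it was chosen on this response the count carries no weight. In a bulk library, fewer cells with the transcript and less of it per cell cannot be told apart.

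The size of the difference varied between experiments at 24 h and was alike at 72 h. At 24 h, Srrm2-KD held 73.6%, 37.8% and 24.0% of the Cox6b2 level of Gl2-KD in experiments 1, 2 and 3. At 72 h it held 32.1%, 33.2% and 30.8%. The remaining share of Srrm2 in the same libraries was 56.7%, 31.02% and 44.5% at 24 h and 47.9%, 37.9% and 49.1% at 72 h. Experiment 1 at 24 h was thus the pair with the smallest difference in both genes. The largest difference at 24 h was in experiment 2 for Srrm2 (31.02%) and in experiment 3 for Cox6b2 (24.0%). Without that knockdown library the log2 fold change at 24 h was -1.76, and without the whole of experiment 3 it was -0.86. The change with siRNA at 72 h minus that at 24 h was -0.40 (SE 0.38) and became 0.11 without the Srrm2-KD library of experiment 1 at 24 h.

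**Figure D2:**
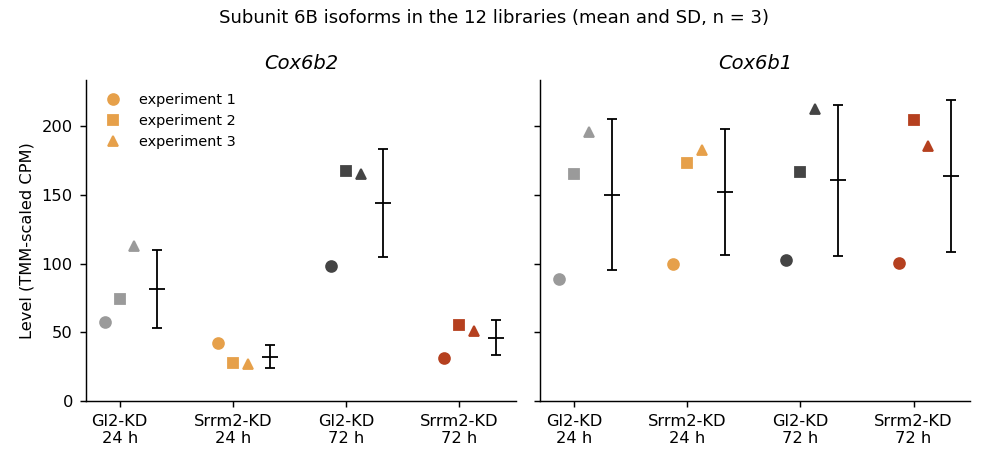
Cox6b2 (left) and Cox6b1 (right) in TMM-scaled CPM in the 12 libraries. Symbols mark the experiment, and the black bar beside each group gives the mean and the SD of 3 libraries. Cox6b2 lies at 27.1 to 55.6 CPM in Srrm2-KD and at 57.4 to 167 CPM in Gl2-KD, while Cox6b1 spans 89.1 to 212 CPM and its groups overlap.

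Cox6b1, the common isoform of the same subunit, showed no such difference. At 24 h it lay at 89.1, 165 and 196 CPM in Gl2-KD and at 99.5, 173 and 183 CPM in Srrm2-KD. At 72 h the values were 103, 166 and 212 CPM in Gl2-KD and 101, 204 and 185 CPM in Srrm2-KD. In every group experiment 1 was lowest, and the siRNA groups overlapped across their whole range. The log2 fold change was 0.04 (SE 0.10, edgeR adjusted p = 1.0) at 24 h and 0.02 (SE 0.10, adjusted p = 0.943) at 72 h.

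To set both isoforms on one scale, the share of Cox6b2 in the sum of Cox6b1 and Cox6b2 was taken per length in each library. In Gl2-KD at 24 h Cox6b2 made up 40.5%, 32.3% and 37.9% of subunit 6B transcripts in experiments 1, 2 and 3 (mean 36.9% ± 4.17, SD, n = 3). At 72 h the Gl2-KD share was 50.3%, 51.6% and 45.2% (mean 49.0% ± 3.39), so that the isoforms stood at about the same level. Which of them was higher depends on the length assumed: with the mean length of all transcripts these shares were 45.2%, 46.5% and 40.2%, and with the union of exons 37.9%, 39.2% and 33.2%. In Srrm2-KD the share was 30.96%, 14.6% and 13.5% at 24 h (mean 19.7% ± 9.76) and 24.9%, 22.4% and 22.5% at 72 h (mean 23.3% ± 1.45). The Srrm2-KD shares lay below all Gl2-KD shares of the same time, and the library of experiment 1 at 24 h came closest to its controls. The share does not depend on the scaling between libraries, since both genes are read in the same one. Under either of those lengths too, the Srrm2-KD shares lay below all Gl2-KD shares of the same time. Cox6b2 was chosen on its response in these libraries, so that this separation of the shares is no separate evidence and carries no weight.

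Between the siRNAs the summed level of both isoforms, which contains Cox6b2, differed in the same direction as Cox6b2. The sum was 242, 393 and 510 CPM per kb in Gl2-KD at 24 h against 233, 328 and 342 in Srrm2-KD. At 72 h it was 334, 555 and 626 CPM per kb in Gl2-KD against 217, 425 and 387 in Srrm2-KD. It was lower in the knockdown in 3 of 3 experiments at each time, with groups that overlapped across experiments.

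**Figure D3:**
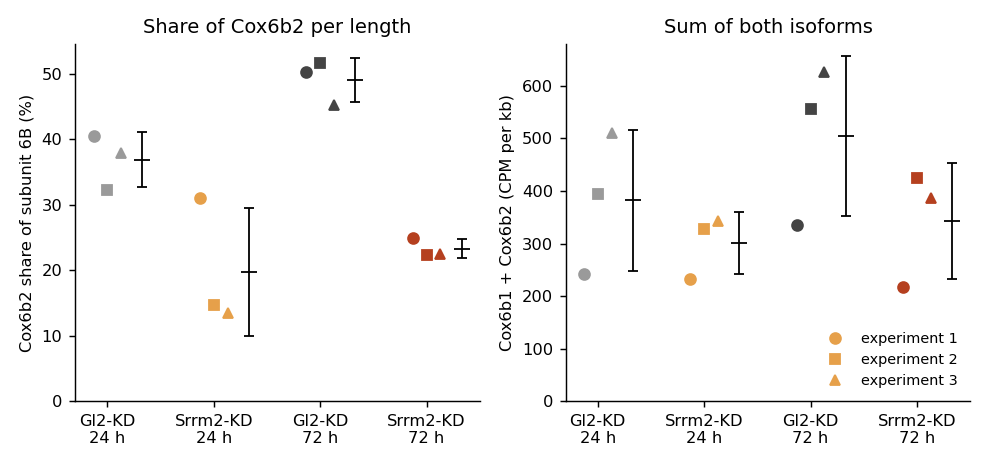
Share of Cox6b2 in subunit 6B transcripts per length in percent (left) and the sum of Cox6b1 and Cox6b2 in CPM per kb (right), for the 12 libraries, with the mean and SD of 3 libraries in black. The share lies at 32.3% to 51.6% in Gl2-KD and at 13.5% to 30.96% in Srrm2-KD, and the sums of the groups overlap.

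In the control Cox6b2 stood higher at 72 h than at 24 h. The 72 h cultures had been transfected again, so that time and the repeated transfection cannot be told apart in any comparison with time. The Gl2-KD level at 72 h was 171%, 225% and 146% of that at 24 h in experiments 1, 2 and 3, and the log2 difference was 0.82 (SE 0.27). In Srrm2-KD it was 74.8%, 198% and 188% of the 24 h level, higher in 2 of 3 experiments, with a log2 difference of 0.42 (SE 0.27). The 24 h and 72 h controls also enter the siRNA comparisons, so that these differences are not separate evidence. Cox6b1 differed by 0.11 (SE 0.10, edgeR adjusted p = 0.636) with time in Gl2-KD and by 0.09 (SE 0.10, adjusted p = 0.69) in Srrm2-KD.

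The subunit 4 pair was read almost entirely from Cox4i1. Cox4i1, the common isoform and the most abundant of the 10 genes, lay at 307, 547 and 616 CPM in Gl2-KD and at 324, 552 and 560 CPM in Srrm2-KD at 24 h. The 72 h levels were 330, 563 and 642 CPM in Gl2-KD and 278, 512 and 545 CPM in Srrm2-KD. It was lower in the knockdown in 3 of 3 experiments at 72 h, by much less than the gap between experiment 1 and the others. The log2 fold change at 72 h was -0.21 (SE 0.08), and its p of 0.0235 became 0.312 after adjustment over all genes in edgeR. At 24 h the log2 fold change was -0.02 (SE 0.08, adjusted p = 1.0).

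Cox4i2 was measured at 8 to 50 estimated counts per library, and the direction of its siRNA difference changed between the times. At 24 h it lay at 0.183, 0.356 and 0.420 CPM in Gl2-KD and at 0.0986, 0.161 and 0.360 CPM in Srrm2-KD. At 72 h it lay at 0.0652, 0.115 and 0.190 CPM in Gl2-KD and at 0.174, 0.251 and 0.286 CPM in Srrm2-KD. It was lower in the knockdown in 3 of 3 experiments at 24 h and higher in 3 of 3 at 72 h, while the groups overlapped at both times. The log2 fold change was -0.73 (SE 0.40, edgeR adjusted p = 1.0) at 24 h and 1.05 (SE 0.42, adjusted p = 0.329) at 72 h. The change at 72 h minus that at 24 h was 1.77 (SE 0.58), with a p of 0.0107 that became 1.0 after adjustment over all genes. With time in Gl2-KD it was lower at 72 h in 3 of 3 experiments, with a log2 difference of -1.41 (SE 0.41) and, in edgeR, an unadjusted p of 0.00571 and an adjusted p of 0.118. None of these differences passed the threshold, and the lowest adjusted p of Cox4i2 in any comparison under any setting was 0.0642. Its share of subunit 4 transcripts per length was 0.0670% ± 0.00456 in Gl2-KD at 24 h, 0.0243% ± 0.00575 in Gl2-KD at 72 h, 0.0431% ± 0.0207 in Srrm2-KD at 24 h and 0.0571% ± 0.00742 at 72 h under the same siRNA (SD, 3 libraries each).

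For subunit 7A, the muscle isoform Cox7a1 was a small part. Cox7a1 lay at 2.77, 4.31 and 7.82 CPM in Gl2-KD and at 2.85, 4.56 and 6.91 CPM in Srrm2-KD at 24 h. By 72 h it lay at 3.19, 6.39 and 8.10 CPM in Gl2-KD and at 2.05, 6.43 and 6.47 CPM in Srrm2-KD. The groups overlapped at both times, and the log2 fold changes were -0.02 (SE 0.21, edgeR adjusted p = 1.0) and -0.29 (SE 0.21, adjusted p = 0.595). Cox7a1 made up 2.61% to 6.67% of subunit 7A transcripts per length in single libraries and a mean of 3.96% to 5.30% in the 4 groups. Cox7a2, the common isoform, spanned 87.2 to 211 CPM and was higher in the knockdown in 3 of 3 experiments at each time. Its log2 fold changes of 0.11 (SE 0.12, adjusted p = 1.0) and 0.16 (SE 0.12, adjusted p = 0.613) did not pass.

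Cox6a2, the other muscle isoform, was near the floor of the assay. It had 0 to 17 estimated counts per library, and its highest level was 0.132 CPM. The count of 0 in Srrm2-KD at 72 h in experiment 3 allows a level of up to 0.0406 CPM (3 counts of that library, counting error only). Its share of subunit 6A transcripts per length was 0.0289% to 0.0410% in the group means. No difference of Cox6a2 was detectable at this depth, with log2 fold changes of 0.38 (SE 0.92) at 24 h and -0.21 (SE 0.91) at 72 h and edgeR adjusted p-values of 1.0 and 0.948. Cox6a1, its common partner, spanned 113 to 272 CPM, with log2 fold changes of 0.04 (SE 0.10) and -0.10 (SE 0.10) and edgeR adjusted p-values of 1.0 and 0.718.

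Cox8c, the testis isoform of subunit 8, was far less abundant than Cox6b2. It had 2 to 36 estimated counts per library, and lay at 0.0264 to 0.274 CPM. At 24 h it stood at 0.0686, 0.257 and 0.0730 CPM in Gl2-KD and at 0.0801, 0.274 and 0.180 CPM in Srrm2-KD. At 72 h it stood at 0.0571, 0.0996 and 0.0304 CPM in Gl2-KD and at 0.0747, 0.0264 and 0.0818 CPM in Srrm2-KD. The groups overlapped, and the log2 fold changes were 0.47 (SE 0.67) and 0.23 (SE 0.74), with edgeR adjusted p-values of 1.0 and 0.926. These errors are wide, and whether its response differs from that of Cox6b2 was not tested. Cox8a, the common isoform, spanned 138 to 302 CPM. Its log2 fold change was 0.04 (SE 0.13, adjusted p = 1.0) at 24 h and -0.24 (SE 0.13, adjusted p = 0.473) at 72 h.

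Across the 9 members other than Cox6b2, edgeR called 0 in each of the 5 comparisons at an adjusted p below 0.05. This has to be read against all genes: edgeR called 0.0% of the 19410 genes tested for the siRNAs at 24 h, at 72 h and for the difference between those changes, 1.45% with time in Gl2-KD and 0.551% with time in Srrm2-KD. DESeq2 also called 0 of the 9, but gave Cox6a2 and Cox8c no adjusted p at 72 h or in either comparison with time. It called 0.129% of all genes for the siRNAs at 24 h and 2.79% at 72 h. With time it called 6.89% in Gl2-KD and 5.47% in Srrm2-KD, and for the difference between times 0.0103%. At an unadjusted p below 0.05, edgeR and DESeq2 each found 0 of the 9 at 24 h, Cox4i1 and Cox4i2 at 72 h, Cox4i2 with time in Gl2-KD, 0 with time in Srrm2-KD and Cox4i2 for the difference between times. The unadjusted share over all genes in edgeR was 2.62% at 24 h, 12.9% at 72 h, 16.8% with time in Gl2-KD, 16.3% with time in Srrm2-KD and 1.64% for the difference between times. A call of 0 among 9 genes is therefore near the background of each comparison. That background depends on the libraries and on the block. With each experiment blocked separately at each time, edgeR called 724 genes (3.73%) for the siRNAs at 72 h, and with the 72 h libraries fitted alone 323 (1.78%), with 0 of the 9 members and 0 of the 8 tested there. The 282 genes called with time in Gl2-KD became 0 without Gl2-KD replicate 2 of 72 h and 2 without Gl2-KD replicate 1 of 24 h. The 107 with time in Srrm2-KD became 0 without Srrm2-KD replicate 1 of 24 h.

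**Figure D4:**
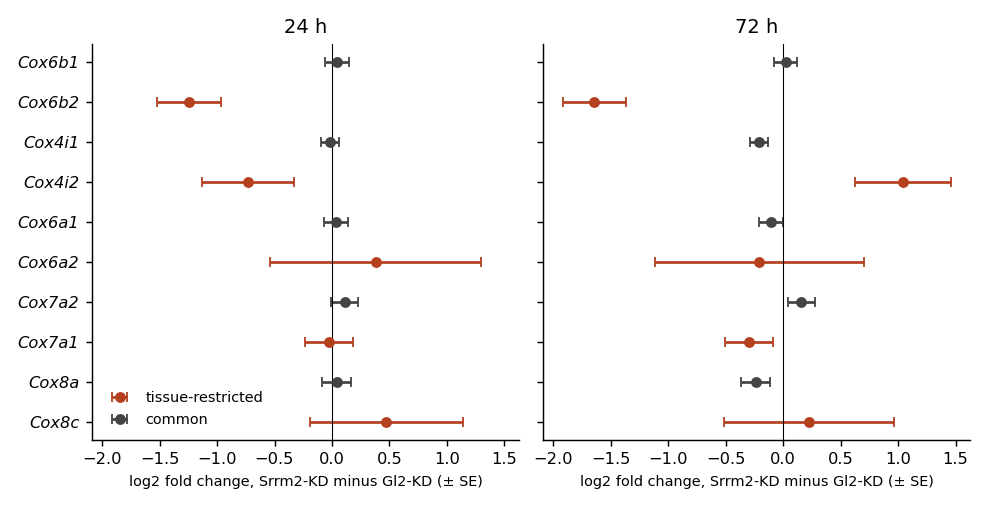
Log2 fold change of Srrm2-KD minus Gl2-KD for 24 h on the left and 72 h on the right for the 10 isoform genes, with the SE of the edgeR fit over 12 libraries as bars; restricted isoforms in red, common isoforms in grey. Cox6b2 lies at -1.24 and -1.64, Cox4i2 at -0.73 and 1.05 on either side of 0, and the 5 common isoforms between -0.24 and 0.16.

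The largest difference among the common isoforms was not between siRNAs but between experiments. Cox6b1 averaged 98.0 CPM in the 4 libraries of experiment 1 and 185 CPM in the 8 of experiments 2 and 3, and Cox4i1 averaged 310 and 567 CPM. On the log2 CPM scale experiment 1 lay below the others by 0.92 for Cox6b1, 0.87 for Cox4i1, 0.76 for Cox7a2, 0.72 for Cox6a1 and 0.61 for Cox8a. Each of these 5 genes was lowest in experiment 1 in 4 of 4 groups. Among the restricted isoforms the same difference was -1.21 for Cox7a1, -0.94 for Cox4i2, -0.42 for Cox8c, -0.39 for Cox6b2 and 0.09 for Cox6a2. Cox6b2 was lowest in experiment 1 in 3 of 4 groups, the exception being Srrm2-KD at 24 h.

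Transcript length moved with this difference between experiments. The longest transcripts of the 10 members span 458 to 765 nt. Over the 491 protein-coding genes tested with transcripts of up to 800 nt the median difference of experiment 1 was -0.70 on the log2 scale. The median rose over -0.59, -0.26 and 0.18 in the longer classes to 0.73 for the 2038 genes above 6000 nt, and was 0.02 over all genes tested. The common isoforms, at -0.92 to -0.61, thus lay around the median of short genes. The siRNA comparisons carried little of it, with medians of 0.07 at 24 h and 0.04 at 72 h for genes of up to 800 nt. The experiment is a term of the fit, and the part of transcript length, RNA quality or the cultures themselves in the difference between experiments was not tested.

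**Figure D5:**
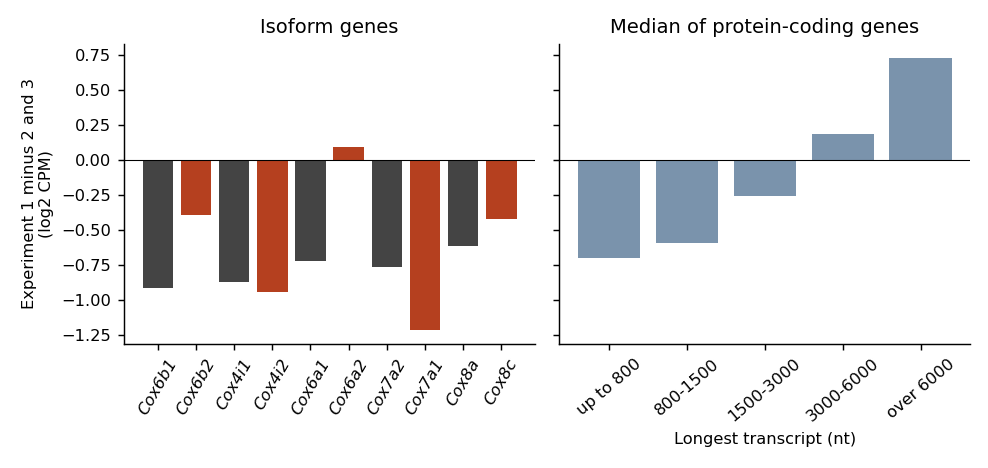
Left, log2 CPM of each isoform gene in experiment 1 minus experiments 2 and 3 (means over 4 and 8 libraries; restricted isoforms in red, common in grey). Right, the median of the same difference over protein-coding genes tested, by length of the longest transcript in nt; the isoform genes belong to the shortest class, at -0.70.

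To see whether the rest of the enzyme moved, the other subunits and the assembly factors of complex IV were counted. Of the 10 other nuclear-encoded subunits 9 were tested, and edgeR called 0 in any comparison. For the siRNAs edgeR called 0.0% of all genes, so that 0 called there carries no information on this list or those below. Their median log2 fold change was 0.05 at 24 h and 0.09 at 72 h, against 0.01 and -0.02 for all genes. Cox5a, a structural subunit of the matrix side, had the smallest p at 72 h, with -0.28 (SE 0.09, edgeR adjusted p = 0.257), close to the value of Cox4i1. The mitochondrially encoded core subunits mt-Co1, mt-Co2 and mt-Co3 were tested 3 of 3 with 0 called, and their medians were 0.15 and 0.21. At 24 h they summed to 12770 to 16790 CPM in Gl2-KD and 14840 to 17450 in Srrm2-KD, which overlapped. At 72 h the sums were 16000 to 17890 and 18810 to 20360 CPM, without overlap, as for 6.67% of all single genes tested at that time. Of the 30 assembly factors, which insert copper and haem or stabilise intermediates, all 30 were tested and 0 were called by edgeR, with medians of 0.05 and 0.03. DESeq2 called 1 subunit and 1 assembly factor in the 5 comparisons, Ndufa4l2 at 1.78 (SE 0.41, DESeq2 adjusted p = 0.000137, edgeR 0.0879) and Coa4 at 0.47 (SE 0.15, DESeq2 adjusted p = 0.0345, edgeR 0.153), both higher with time in Srrm2-KD. Over all genes DESeq2 called 5.47% in that comparison. Ndufa4, usually counted as an abundant subunit, was listed at 0 to 0.357 CPM in these libraries.

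Regulators that are known for these genes were counted next. Of 9 nuclear respiratory factors and coactivators 8 were tested, with 0 called by edgeR in any comparison and medians of -0.01 at 24 h and 0.01 at 72 h. Of 5 regulators named for Cox4i2, which include Rbpj, Chchd2 and Hif1a, 5 were tested and edgeR called 0, with medians of -0.07 and -0.12. DESeq2 called 2 of the 5, Rbpj lower with time in Gl2-KD (-0.34, SE 0.09, DESeq2 adjusted p = 0.0265, edgeR 0.103) and Epas1 lower with time in Srrm2-KD (-0.82, SE 0.19, DESeq2 adjusted p = 0.00308, edgeR 0.0881). Among 13 repressors of germline genes, such as E2f6, Pcgf6 and the DNA methyltransferases, edgeR called 0 for the siRNAs and 1 with time in Gl2-KD. That gene was Dnmt3l, a cofactor of de novo DNA methylation, at -1.09 (SE 0.18, edgeR adjusted p = 0.0245), and its call was lost in 7 of 15 fits that left out 1 library or 1 experiment (adjusted p up to 0.521). The next by p were Ehmt2 at -0.31 (adjusted p = 0.119), Dnmt3b at -0.47 (0.153) and L3mbtl2 at -0.34 (0.190). DESeq2 called Dnmt3l and Ehmt2 lower with time under both siRNAs, and Dnmt3a higher with the Srrm2 siRNA at 72 h (0.84, SE 0.19, DESeq2 adjusted p = 0.00264, edgeR 0.144). Over all genes edgeR called 1.45% with time in Gl2-KD. There DESeq2 called 6.89%, with 5.47% with time in Srrm2-KD and 2.79% for the siRNAs at 72 h.

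Cox6b2 was also set beside the testis isoforms of other energy enzymes. Of 10 such genes 7 were tested and edgeR called 0 in any comparison. Their median log2 fold change with siRNA was 0.22 at 24 h and 0.23 at 72 h. All 10 together summed to only 14.2 to 30.7 CPM in a library, which limits these values. Cyct, the testis cytochrome c, was the most abundant of them at 7.74 to 14.96 CPM, with log2 fold changes of 0.21 (SE 0.19, adjusted p = 1.0) and 0.50 (SE 0.19, adjusted p = 0.312). Slc25a31, the testis adenine nucleotide carrier, had -0.06 (SE 0.25, adjusted p = 1.0) and 0.23 (SE 0.25, adjusted p = 0.741). DESeq2 called Pdha2, a testis subunit of pyruvate dehydrogenase, at 72 h with 1.30 (SE 0.39, DESeq2 adjusted p = 0.0483, edgeR 0.22). With time in Gl2-KD it called Pdha2 lower (-1.22) and Pgam2 (0.70) and Ldhc (0.92) higher, and Ldhc also in Srrm2-KD (1.12), at DESeq2 adjusted p-values of 0.0399, 0.0467, 0.0453 and 0.0094. Over all genes DESeq2 called 2.79% for the siRNAs at 72 h, and 6.89% and 5.47% with time in Gl2-KD and Srrm2-KD. The common partners of the testis isoforms were tested 10 of 10, with 0 called by edgeR and medians of 0.01 and 0.05. DESeq2 called Ldha, lactate dehydrogenase A, higher with the Srrm2 siRNA at 72 h (0.59, DESeq2 adjusted p = 0.0467), Slc25a4 higher with time under both siRNAs (0.44 and 0.38, adjusted p = 0.00307 and 0.0143) and Pgam1 lower with time in Gl2-KD (-0.39, adjusted p = 0.0126).

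Markers of the cells that normally use the restricted isoforms summed to less than the embryonic stem cell markers, and some of them passed the filter on low counts. The embryonic stem cell markers summed to 5198 to 8039 CPM, with 10 of 10 tested and 0 called by edgeR in any comparison, while DESeq2 called Zfp42 lower with time in Gl2-KD (-0.35, DESeq2 adjusted p = 0.014). Of 8 male germ cell markers only Ddx4, Dazl and Sycp3 were tested. Prm1, a protamine of sperm, was listed at 0 in every library, and Tnp1 and Prm2 had at most 1 count in any library. The list summed to 70.7 to 158 CPM in Gl2-KD at 24 h, 202 to 242 in Gl2-KD at 72 h, 66.3 to 159 in Srrm2-KD at 24 h and 173 to 287 in Srrm2-KD at 72 h. Most of it was Sycp3, a protein of meiotic chromosome axes that embryonic stem cells also transcribe, which rose with time by 1.39 (SE 0.30, edgeR adjusted p = 0.0488) in Gl2-KD and 1.58 (SE 0.30, adjusted p = 0.0492) in Srrm2-KD. Both calls lay just under the threshold. When 1 library or 1 experiment was left out, the first was lost in 11 of 15 fits and the second in 13 of 15, with adjusted p-values of up to 0.521 and 0.653. Ddx4 (0.29 and 0.45, adjusted p = 0.248 and 0.115) and Dazl (0.21 and 0.35, adjusted p = 0.791 and 0.613) did not pass in edgeR, while DESeq2 called Ddx4 in Srrm2-KD (DESeq2 adjusted p = 0.0207). With siRNA edgeR called 0 of the 3, as it did of all genes. With time it called 1.45% of all genes in Gl2-KD and 0.551% in Srrm2-KD, where DESeq2 called 6.89% and 5.47%.

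Heart and skeletal muscle markers summed to 7.49 to 19.1 CPM in Gl2-KD at 24 h, 7.77 to 35.5 at 72 h, and 8.85 to 16.4 and 7.70 to 22.6 CPM in Srrm2-KD, with 7 of 8 tested and 0 called by edgeR. DESeq2 called Acta1, skeletal muscle actin, lower in Srrm2-KD at 72 h (-2.30, SE 0.51, DESeq2 adjusted p = 0.000744, edgeR 0.144) and higher with time in Gl2-KD (1.69, SE 0.49, DESeq2 adjusted p = 0.0113, edgeR 0.112). Smooth muscle and lung markers, the tissues of Cox4i2, ranged from 1.37 to 29.7 CPM in Gl2-KD at 24 h, 1.07 to 48.7 at 72 h, 1.59 to 8.88 in Srrm2-KD at 24 h and 0.567 to 13.8 at 72 h. Of that list 4 of 5 were tested with 0 called by edgeR, Sftpc of lung epithelium was listed at 0 in every library, and DESeq2 called Tagln lower in Srrm2-KD at 72 h (-1.62, SE 0.41, DESeq2 adjusted p = 0.00188, edgeR 0.157). The median log2 fold change of the 4 tested was -0.705 at 24 h and -1.876 at 72 h. Trophoblast markers were tested 8 of 8 and edgeR called Krt7, a keratin, higher with time (1.83, SE 0.27, adjusted p = 0.0144 in Gl2-KD and 1.77, SE 0.26, adjusted p = 0.0333 in Srrm2-KD), calls that were lost in 5 and 10 of 15 fits with 1 library or 1 experiment left out (adjusted p up to 0.501 and 0.653). In Gl2-KD the next by p were Tfap2c (0.39, adjusted p = 0.125), Plet1 (-0.46, 0.186) and Eomes (0.41, 0.646), and in Srrm2-KD Plet1 (-0.31, 0.386), Hand1 (-1.55, 0.45) and Eomes (0.48, 0.567). DESeq2 also called Tfap2c lower with the Srrm2 siRNA at 72 h (-0.53, SE 0.12, DESeq2 adjusted p = 0.00557, edgeR 0.14) and Plet1 lower with time in Gl2-KD (DESeq2 adjusted p = 0.0379). Primitive endoderm markers were tested 6 of 6 with 0 called by edgeR and summed to 2.23 to 4.80 CPM. The part of any of these cells in the levels of the restricted isoforms was not tested. Over all genes edgeR called 0.0% for the siRNAs, 1.45% with time in Gl2-KD and 0.551% with time in Srrm2-KD. DESeq2 called 2.79% for the siRNAs at 72 h and 6.89% with time in Gl2-KD.

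On the genome, Cox6b2 lies at chr7:4751792-4753094 on the minus strand (GRCm38, GENCODE M21), with 9 annotated transcripts and 3 exons in the longest protein-coding one. Its nearest neighbour is Fam71e2, which lies upstream on the same strand and whose end is separated by 131 bp from the start of Cox6b2. Fam71e2 had 0 to 20 estimated counts per library, was lower with the Srrm2 siRNA at each time in 3 of 3 experiments, and had log2 fold changes of -1.26 (SE 0.78, edgeR adjusted p = 1.0) and -1.93 (SE 0.88, adjusted p = 0.386). Kmt5c, a histone H4 lysine methyltransferase 4277 bp away on the other side, lay at 91.3 to 170 CPM, with -0.20 (SE 0.12, adjusted p = 1.0) and -0.39 (SE 0.12, adjusted p = 0.244). Cox6b1 lies on the same chromosome at chr7:30616861-30626151, and Cox7a1 at chr7:30184144-30186078. Among the other members, Cox4i1 overlaps exons of Emc8 on the opposite strand by up to 154 bp and lies inside the span of Gm20388, and Cox6a2 overlaps an exon of Itgad by 70 bp. The libraries were made with a stranded kit, and the sources used here do not say whether counting used the strand.

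Of the 10 members 6 had a promoter sequence, from 250 bases before to 50 bases after the start, in the RefSeq table (GRCm38.p6). The number of CpG dinucleotides in these 300 bases was 32 for Cox6a1, 20 for Cox7a2, 19 for Cox8a and 17 for Cox6b1. Of the restricted isoforms only Cox6b2 and Cox7a1 had a sequence, and these held fewer, with 10 and 7, where the median of all promoters was 7. The Cox6b2 window, chr7:4753045-4753344, runs into Fam71e2, which is annotated from 4753226 on. On either strand, the ETS letters CCGGAAG were found in Cox6b1, Cox6a1 and Cox8a, and in 8.9% of all promoters. The NRF1 letters TGCGCA (7.8% of all) and the E2F letters GCGGGA (20.0% of all) were found in Cox6a1. No match to these, to the E-box CACGTG (7.2%), to the YY1 letters AAGATGG (6.3%) or to the TATA letters TATAAA (13.6%) was found in Cox6b2, Cox7a1 or Cox7a2. Such a match, or its absence, describes the letters of this window and not binding.

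Finally, the genes whose pattern over the 12 libraries was most like that of Cox6b2 were listed by Pearson's r of log2 CPM, as a description with no test, since the libraries share experiments, siRNAs and times. The 5 highest were Pced1a (0.971), Mir5125 (0.968), Inpp5k (0.965), Fam3a (0.953) and Fndc10 (0.952). Mir5125, at chr17:23823291-23823369, lies within Srrm2 itself, so that its reads can belong to the targeted gene. After the mean of each experiment was removed the highest were Taz (0.989), which encodes the cardiolipin-remodelling enzyme tafazzin, Inpp5k (0.988), a phosphoinositide phosphatase, Ankle1 (0.982), 2810410L24Rik (0.978) and Dtx3 (0.978). In these 9 genes the log2 fold changes with siRNA lay between -1.58 and -0.29 at 24 h and between -1.88 and -0.38 at 72 h, which is part of what the correlation reads. Among the members themselves r with Cox6b2 after that step was highest for Cox4i1 (0.676) and Cox7a1 (0.631) and was 0.174 for Cox6b1, and for Srrm2 it was 0.871.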

How the data were processed

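PolyA+ RNA was sequenced as paired-end reads from stranded libraries with added spike-ins. The estimated counts, deposited as 1 value per gene and library and not scaled for depth, were made by the authors with Kallisto 0.46.1 and the transcriptome of GENCODE M24. How transcripts were summed per gene and the RNA processing day of each library are not given in the sources used here. Positions, lengths and symbols were taken from GENCODE M21 on the same assembly (GRCm38), which matched 42156 of 42450 genes.

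The members and lists were chosen with earlier results of these data known, and motifs were chosen after the data had been seen. Estimated counts were rounded and fitted in R 4.3.3 with edgeR 4.0.16 (filterByExpr with a minimum count of 10 and a minimum total of 15, TMM factors, glmQLFit with legacy=TRUE, glmQLFTest), with the group and the experiment as terms and 12 libraries in 1 fit. P-values were adjusted by Benjamini-Hochberg over 19410 genes and called below 0.05. The experiment is the replicate number of the labels. Deviations from group means correlated at 0.281 to 0.747 within experiments and at -0.628 to 0.231 between them, so the experiment served as the block. Named were the 10 members, Srrm2, the 4 genes of smallest p of each list with a call (fewer where fewer were tested), and the 5 genes most correlated with Cox6b2. Genes of a list called by DESeq2 alone, Cox5a, Ndufa4, Cyct, Slc25a31, absent markers and neighbouring genes were named after their values were seen. The replicates came from 3 frozen batches of 1 cell line, so that p-values measure the spread between cultures of that line. The fits were also run on simulated data, which held no difference between experiments and so cannot speak to the choice of block. DESeq2 1.42.0, limma 3.58.1 and Biopython 1.88 served for alternatives and alignments. Other scalings, filters, blocks and left-out libraries are given at the end.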

Additional observations from a re-analysis of the deposited data

Results flagged for a closer look

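With the Srrm2 siRNA, Cox4i2 was lower at 24 h in 3 of 3 experiments and higher at 72 h in 3 of 3. The change at 72 h minus that at 24 h was 1.77 on the log2 scale (SE 0.58), which did not pass after adjustment (edgeR adjusted p = 1.0), from 8 to 50 estimated counts per library.

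Cox4i1 was higher at 72 h than at 24 h in 3 of 3 experiments of Gl2-KD and lower in 3 of 3 of Srrm2-KD, and the difference between these changes was -0.19 (SE 0.11, edgeR adjusted p = 1.0). Cox8a showed the same directions, with a difference of -0.28 (SE 0.18, edgeR adjusted p = 1.0). Neither passed the test of the difference itself.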

How the results depend on the processing

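The count of members other than Cox6b2 called was 0 under each of the 26 alternatives for the siRNA comparisons and each of the 25 for the other 3 comparisons. Cox6a2 and Cox8c had no adjusted p in some DESeq2 fits and are not in fits that filtered them out. The replicate block was part of the main fit. Without the replicate block, the sign of the log2 fold change turned for Cox6a1 at 24 h (-0.003), Cox8c at 72 h (-0.016), Cox7a1 with time in Srrm2-KD (0.059) and Cox6b1 for the difference between times (0.007), and this changed no call of a member. Over all genes the fit without the replicate block called 0 in both comparisons with time, and that with the replicate block per experiment and time called 724 genes for the siRNAs at 72 h in place of 0. limma-voom turned Cox6a2 with time in Srrm2-KD (-0.17). With the mean length of all transcripts the Cox6b2 share was 32.3% and 44.0% in Gl2-KD at 24 h and 72 h and 19.8% in Srrm2-KD at 72 h. With the union of all exons these were 26.2%, 36.8% and 15.5%.

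Leaving out 1 library or 1 experiment turned the sign of small differences. At 24 h the ranges were -0.063 to 0.038 for Cox4i1, -0.083 to 0.12 for Cox6a1, -0.16 to 0.64 for Cox6a2, -0.016 to 0.11 for Cox6b1, -0.18 to 0.087 for Cox7a1 and -0.092 to 0.15 for Cox8a. At 72 h they were -0.86 to 0.57 for Cox6a2, -0.12 to 0.13 for Cox6b1, -0.002 to 0.27 for Cox7a2 and -0.35 to 0.90 for Cox8c. With time in Srrm2-KD they were -0.009 to 0.18 for Cox6a1, -0.49 to 1.16 for Cox6a2, -0.018 to 0.17 for Cox6b1, -0.32 to 0.21 for Cox7a1 and -0.044 to 0.27 for Cox7a2, and with time in Gl2-KD -0.031 to 0.24 for Cox8a. For the difference between times they were -1.34 to 0.32 for Cox6a2, -0.15 to 0.069 for Cox6b1, -0.11 to 0.16 for Cox7a2 and -0.91 to 0.38 for Cox8c. The cause was not tested. Over all settings the value of Cox6b2 at 24 h was -1.76 to -0.86, and that at 72 h -1.84 to -1.51. It went from 0.12 to 0.95 with time in Srrm2-KD and from -0.76 to 0.11 for the difference between times. Counts of 0 to 50 limit Cox4i2, Cox6a2 and Cox8c, and 3 libraries a group limit every comparison.

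The counts over all genes moved more. For the siRNAs at 72 h, where edgeR called 0, the count was 542 with DESeq2, 42 with no filter on low counts, 4 with limma-voom and 0 to 55 in edgeR with 1 library left out. With time, the counts of 282 in Gl2-KD and 107 in Srrm2-KD became 482 and 259 with limma-voom, 476 and 176 with a minimum of 10 counts per library, 158 and 0 with the libraries of each siRNA alone, and 0 in both with experiment 1 against experiments 2 and 3 as batch. Leaving out 1 library gave 0 to 387 in Gl2-KD, where the libraries that moved the count down by over 1.5 times were the 3 Gl2-KD libraries of 24 h (2, 3 and 81), Gl2-KD replicates 2 and 3 of 72 h (0 and 60) and Srrm2-KD replicate 2 of 24 h (101). In Srrm2-KD it gave 0 to 93, and each library other than Gl2-KD replicate 3 of 72 h (93) moved the count down by over 1.5 times.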
